A study of Mus musculus with 8 samples.

Results

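The 10 genes described here are the immediate-early AP-1 and EGR factors with a pair of companions: Fos, Fosb and Fosl2 of the FOS family, Jun, Junb and Jund of the JUN family, Egr1 and Egr2 of the EGR family, and Ier2 and Zfp36. They were taken by symbol from the table of 24062 genes. All 10 were found, and all 10 were kept by edgeR's low-count filter, which left 13197 genes to test. They were chosen because early response genes had lower levels after PARP1 deletion in these same libraries. The PARP1CKO comparison is therefore given as a description with no test, and the tests are those of the PARP2CKO comparison, which did not choose the genes.

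Immediate-early genes are switched on within minutes of a stimulus, without new protein synthesis, and many of their transcripts decay as fast. FOS and JUN proteins pair through leucine zippers to form AP-1, a transcription factor of dividing, stimulated and differentiating cells. JUN proteins also pair with each other, whereas FOS proteins need a partner. EGR1 and EGR2 are zinc finger factors, and in the myeloid lineage both are linked with macrophage differentiation. FOS is required for the formation of osteoclasts, which arise from the myeloid cells studied here. IER2 is a small nuclear protein of the same early response, and ZFP36, or tristetraprolin, binds AU-rich elements and marks early response and cytokine transcripts for decay.

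RNA was sequenced from immature myeloid cells (IMCs) of C57BL/6 mice aged 2 months, in 4 groups of 2 libraries. PARP1 WT mice had the genotype PARP1 flox/flox and PARP1CKO mice PARP1 flox/flox with lysozyme-Cre, while PARP2 WT and PARP2CKO mice had PARP2 flox/flox without and with lysozyme-Cre. Bone marrow cells of all groups were grown for 3 days in 40 ng per mL of M-CSF, the growth factor that drives the macrophage lineage. Lysozyme-Cre cuts the floxed gene in myeloid cells, and the WT groups carry no Cre, so deletion and Cre cannot be told apart. The labels name the mice only by genotype and number, and the series calls the libraries biological duplicates.

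Libraries held between 37852450 and 61845125 counts, and the 10 genes took between 0.0478% and 0.0821% of a library. Levels are CPM, counts scaled to library size with edgeR's TMM factors. Parp1 had 202 and 211 CPM in PARP1 WT libraries and 63.2 and 59.1 CPM in PARP1CKO libraries, and Parp2 had 48.2 and 48.3 CPM in PARP2 WT libraries and 25.7 and 25.6 CPM in PARP2CKO libraries. PARP2 WT replicate 2 stood apart in Parp1, with 155 CPM against 251 to 264 CPM in the other PARP2 line libraries. The myeloid label was checked on 9 genes with a summed level of 2480 to 2758 CPM, most of it from Itgam, which encodes CD11b, at 881 to 1035 CPM, and Csf1r, the M-CSF receptor, at 1134 to 1273 CPM. The sum was 2708 to 2758 CPM in PARP2CKO against 2603 to 2687 CPM in PARP2 WT, although 5 of the 9 lay lower in both PARP2CKO libraries (Cd33, Ly6c2, Ly6c1, Kit and Elane) and 0 higher, beside 18.8% and 18.4% of all genes. In PARP1CKO the sum was 2480 to 2485 CPM against 2530 to 2585 CPM. In this comparison 2 of the 9 lay lower in both libraries and 1 higher, beside 20.2% and 21% of all genes. Ly6g, one of the genes behind the Gr-1 stain, was not analysed here. Macrophage genes summed to 3971 to 4735 CPM and neutrophil genes to 2538 to 3272 CPM, whereas 7 B cell genes summed to 8.15 to 43.0 CPM and 7 T and NK cell genes to 2.12 to 3.31 CPM. In such bulk RNA, fewer cells that express a gene and less RNA per cell cannot be told apart.

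The promoters of 4 of the genes show how they differ in the elements that immediate-early control is known for. Fos, Fosb and Zfp36 are shown because both libraries of each CKO group lay below both libraries of its WT group, and Jun because its groups overlapped in both comparisons. Each window runs from 250 bases before to 50 bases after the RefSeq start of the gene on GRCm38.p6 (mm10) and is printed 5′ to 3′ on the strand of the gene. The windows are chr12:85473640-85473939 on the plus strand for Fos, and chr7:19309996-19310295 for Fosb, chr7:28379179-28379478 for Zfp36 and chr4:95052173-95052472 for Jun, all 3 on the minus strand. Capitals mark matches to the motifs named in the next paragraph.
Fos: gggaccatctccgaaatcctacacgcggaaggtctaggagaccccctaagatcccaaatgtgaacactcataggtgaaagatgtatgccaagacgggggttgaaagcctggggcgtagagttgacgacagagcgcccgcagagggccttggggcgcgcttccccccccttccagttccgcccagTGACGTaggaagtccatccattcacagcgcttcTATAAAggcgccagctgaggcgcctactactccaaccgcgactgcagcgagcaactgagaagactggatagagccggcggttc
Fosb: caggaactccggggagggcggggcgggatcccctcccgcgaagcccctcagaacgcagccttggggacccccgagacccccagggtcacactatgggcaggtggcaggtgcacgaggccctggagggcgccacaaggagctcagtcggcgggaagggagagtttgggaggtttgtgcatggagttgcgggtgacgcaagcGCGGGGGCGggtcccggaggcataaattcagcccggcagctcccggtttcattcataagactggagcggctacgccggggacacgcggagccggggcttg
Zfp36: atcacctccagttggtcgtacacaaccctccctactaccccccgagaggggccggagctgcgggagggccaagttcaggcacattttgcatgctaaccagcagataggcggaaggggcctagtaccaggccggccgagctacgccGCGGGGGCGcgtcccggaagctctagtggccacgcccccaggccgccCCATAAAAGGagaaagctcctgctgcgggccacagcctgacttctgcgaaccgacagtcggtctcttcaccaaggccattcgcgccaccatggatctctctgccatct
Jun: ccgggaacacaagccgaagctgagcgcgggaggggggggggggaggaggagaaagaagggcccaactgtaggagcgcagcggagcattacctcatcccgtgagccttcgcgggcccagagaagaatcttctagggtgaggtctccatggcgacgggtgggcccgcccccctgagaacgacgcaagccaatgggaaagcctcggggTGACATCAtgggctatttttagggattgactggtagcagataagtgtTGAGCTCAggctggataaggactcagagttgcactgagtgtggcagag

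Both strands were searched for the CArG box bound by SRF, the CRE half-site TGACGT, the AP-1 site TGANTCA, the 8-base AP-1 or CRE form TGANNTCA, the EGR site GCGNGGGCG and the TATA box TATAAA. A full CRE would count as a half-site and as an 8-base form. Over the 32851 promoter windows of RefSeq the shares that held each were 1.63%, 7.51%, 7.81%, 14.1%, 5.55% and 13.6%, in this order. Of the 8 genes with a window, 1 held a CArG box, Zfp36, at positions -58 to -49 counted from the start. A CRE half-site was found in Fos, at positions -66 to -61, together with a TATA box at -33 to -28. Jun held 2 matches to the 8-base form, TGACATCA before the start and TGAGCTCA just after it, and Jund held 1. The RefSeq starts of Jund and Junb lie before the gene spans that GENCODE M21 gives, that of Jund well before. Those of Zfp36, Fosl2, Egr2 and Fosb lie within theirs, so the annotations differ on these starts. An EGR site with the letters GCGGGGGCG was found in Fosb, Fosl2 and Zfp36. Junb had a TATA box match that begins at its RefSeq start, and so lies before its GENCODE start. The AP-1 site of 7 bases was in none of the 8 windows, and the window of Egr2, the first of 5 listed starts, held none of the motifs. Such matches are letters in a window and not measured binding, and elements further from the start lie outside it. Egr1 and Ier2 have no window here.

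In PARP1CKO the genes did not all lie lower: 5 of the 10 lay lower in both PARP1CKO libraries than in both PARP1 WT libraries, 1 lay higher and 4 overlapped. The edgeR test called 0.106% of all genes in this contrast. Over all genes tested, 20.2% lay lower in both and 21% lay higher in both, and since the genes were chosen on this contrast nothing is read from their share. The order of size, from the lowest log2 fold change, was Fosb (-3.08), Egr1 (-2.51), Fos (-1.45), Zfp36 (-0.37), Ier2 (-0.34), Jun (-0.07), Egr2 (-0.02), Fosl2 (-0.0075), Junb (0.05) and Jund (0.32). The signs of Jun, Egr2, Fosl2 and Junb turned when 1 library was left out, so their places in the order are not firm. The median of the 10 was -0.21, beside 0.0059 for all genes tested. The lowest ratios were those of Fosb, Egr1 and Fos, while the JUN family had levels near or above those of PARP1 WT.

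**Figure D1:**
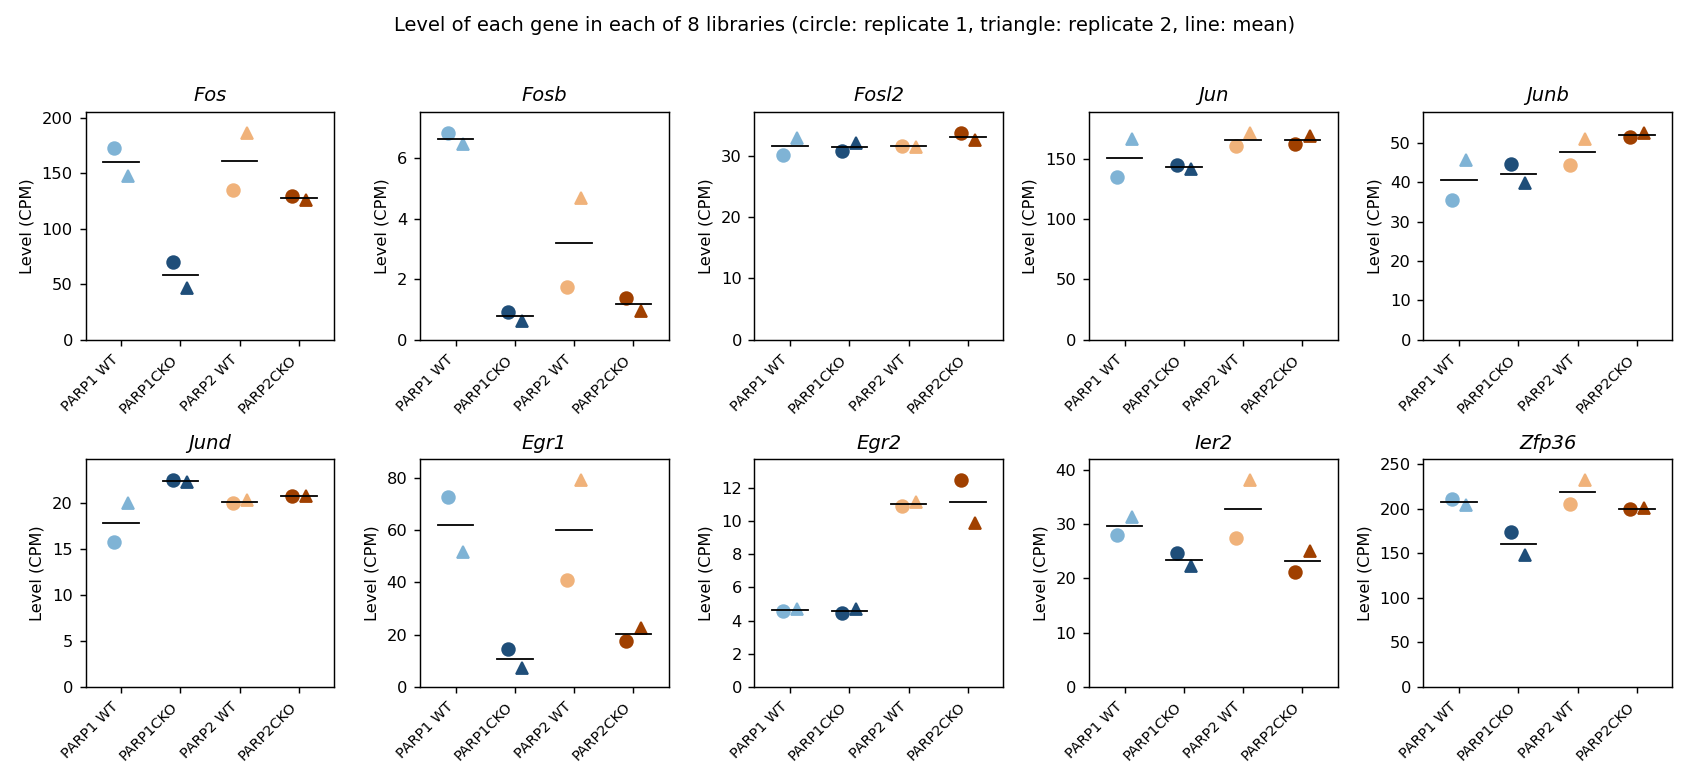
Level of each of the 10 genes in CPM (vertical axes, from 0) in the 4 groups, with circles for replicate 1, triangles for replicate 2 and a line at the mean of the 2 libraries. Fos, Fosb and Egr1 were lowest in the PARP1CKO libraries, and Egr2 separated the PARP2 line from the PARP1 line. PARP2 WT replicate 2 had the highest Fos, Jun, Egr1, Ier2 and Zfp36.

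Fos (chr12:85473890-85477273 in GENCODE M21 on mm10, plus strand, 4 exon blocks), the founding AP-1 subunit, had 173 and 147 CPM in PARP1 WT libraries and 69.7 and 47.1 CPM in PARP1CKO libraries. The PARP2 WT libraries had 135 and 186 CPM and the PARP2CKO libraries 129 and 126 CPM. In each line both WT libraries lay above both CKO libraries, and the PARP1CKO libraries were the lowest of the 8. The level was 2.74-fold higher in PARP1 WT than in PARP1CKO. The PARP2CKO difference was a log2 fold change of -0.33 (standard error 0.18, 95% interval -0.74 to 0.08), which did not pass the test (adjusted p = 0.954 in edgeR's quasi-likelihood test, Benjamini-Hochberg over all genes). It was -0.08 without PARP2 WT replicate 2 and -0.55 without PARP2 WT replicate 1.

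Fosb (chr7:19302696-19310051, minus strand), whose protein can take the place of FOS in AP-1, had the lowest mean level of the 10 over all libraries, although not in PARP1 WT, where Egr2 was lower. It had 264 and 320 raw counts in PARP1 WT libraries, 47 and 28 counts in PARP1CKO libraries, 100 and 244 counts in PARP2 WT libraries and 83 and 46 counts in PARP2CKO libraries. These were 6.82 and 6.45 CPM in PARP1 WT libraries and 0.932 and 0.619 CPM in PARP1CKO libraries, an 8.46-fold higher level in PARP1 WT and the largest ratio of the 10 genes. The PARP2 WT libraries had 1.73 and 4.69 CPM and the PARP2CKO libraries 1.39 and 0.953 CPM. In each line both WT libraries lay above both CKO libraries, but PARP2 WT replicate 1 lay closer to the PARP2CKO libraries than to its own replicate. The PARP2CKO difference was -1.42 on the log2 scale (standard error 0.42, 95% interval -2.38 to -0.47), with an unadjusted p of 0.00833 and an adjusted p of 0.849 in edgeR's quasi-likelihood test. It went to -0.54 without PARP2 WT replicate 2. Without PARP2 WT replicate 1 it went to -1.98 and passed the threshold (adjusted p = 0.0210), and it also passed with DESeq2 (adjusted p = 0.0431), while over all alternatives its adjusted p lay between 0.0210 and 1.

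Fosl2 (chr5:32135801-32157842, plus strand), which encodes the AP-1 subunit FRA2, was the steadiest of the 10. Its levels were 30.1 and 32.9 CPM in PARP1 WT libraries, 30.7 and 31.98 CPM in PARP1CKO libraries, 31.6 and 31.4 CPM in PARP2 WT libraries and 33.7 and 32.5 CPM in PARP2CKO libraries. The highest library was 1.12-fold above the lowest, against 11.02-fold for Fosb and 11.04-fold for Egr1. The PARP2CKO difference was 0.07 on the log2 scale (95% interval -0.05 to 0.20, adjusted p = 0.954, edgeR's quasi-likelihood test).

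Jun (chr4:95049034-95052222, minus strand, 1 exon), the main partner of FOS, had 135 and 166 CPM in PARP1 WT libraries and 145 and 141 CPM in PARP1CKO libraries. The PARP2 WT libraries had 160 and 171 CPM and the PARP2CKO libraries 162 and 169 CPM. The groups overlapped in both comparisons. The PARP2CKO difference was -0.0026 on the log2 scale (95% interval -0.19 to 0.19) with an adjusted p of 0.998 in edgeR's quasi-likelihood test.

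Junb (chr8:84974484-84978718, minus strand) and Jund (chr8:70698949-70700616, plus strand) encode JUN family proteins that are weaker activators than JUN in many settings. Junb had 35.5 and 45.7 CPM in PARP1 WT libraries, 44.5 and 39.8 CPM in PARP1CKO libraries, 44.5 and 51.05 CPM in PARP2 WT libraries and 51.5 and 52.6 CPM in PARP2CKO libraries. Jund was the 1 gene of the 10 that lay higher in both PARP1CKO libraries, with 15.8 and 20.0 CPM in PARP1 WT libraries against 22.5 and 22.3 CPM in PARP1CKO libraries. It had 20.0 and 20.4 CPM in PARP2 WT libraries and 20.8 CPM in both PARP2CKO libraries. PARP1 WT replicate 1 was the lowest library for both genes, and without it the Jund log2 fold change in PARP1CKO went from 0.32 to 0.16, while without PARP1 WT replicate 2 it went to 0.50. The PARP2CKO differences were 0.12 for Junb (95% interval -0.12 to 0.37) and 0.05 for Jund (-0.16 to 0.26), with adjusted p-values of 0.962 and 0.978 in edgeR's quasi-likelihood test. The antisense gene Gm11175 shares 877 bases of the Jund exon in GENCODE M21. Per the methods of the study the library kit was stranded, but the strand setting of the counting is not given in the sources used here. Whether the counts keep reads of the pair apart is therefore not known.

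**Figure D2:**
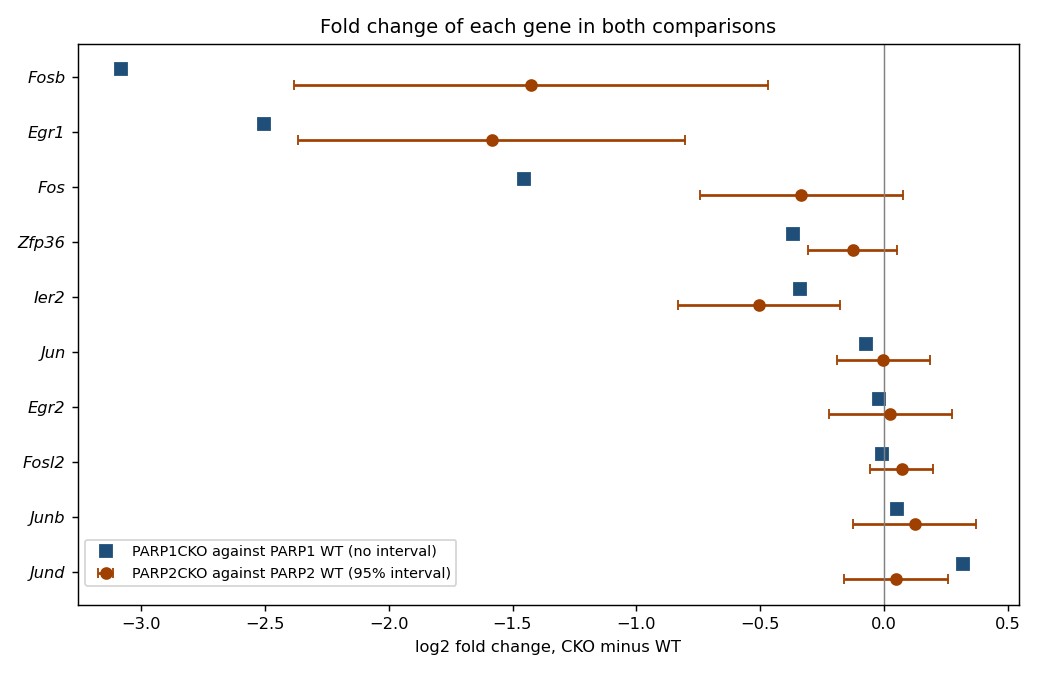
Log2 fold change of each gene (horizontal axis, CKO minus WT), with squares for PARP1CKO against PARP1 WT, which has no interval because the genes were chosen on it, and circles with 95% intervals for PARP2CKO against PARP2 WT. Fosb, Egr1 and Ier2 had PARP2CKO intervals below 0, before adjustment over all genes.

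Egr1, on chromosome 18, encodes a zinc finger factor that binds GC-rich sites, and it had 72.5 and 51.7 CPM in PARP1 WT libraries and 14.5 and 7.17 CPM in PARP1CKO libraries. The PARP2 WT libraries had 41.0 and 79.1 CPM and the PARP2CKO libraries 17.5 and 22.6 CPM. As with Fos, both WT libraries of each line lay above both CKO libraries. The level was 5.68-fold higher in PARP1 WT than in PARP1CKO, with a log2 fold change of -3.11 without PARP1CKO replicate 1 and -2.10 without PARP1CKO replicate 2. In the PARP2CKO comparison the log2 fold change was -1.58 (standard error 0.34, 95% interval -2.37 to -0.80), a level 2.998-fold higher in PARP2 WT and the lowest of the 10 log2 fold changes. Its unadjusted p was 0.00135 and its adjusted p 0.538 in edgeR's quasi-likelihood test, so it did not pass over all genes. It passed with edgeR's likelihood-ratio test (adjusted p = 0.00733), without a filter on low counts (adjusted p = 0.00370) and with a replicate block (adjusted p = 0.0405), not with the crossed block (adjusted p = 0.152), and over all alternatives its adjusted p lay between 0.00370 and 1. It was -1.03 without PARP2 WT replicate 2 and -1.98 without PARP2 WT replicate 1.

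Egr2 (chr10:67535475-67542188, plus strand), a relative of Egr1 with a role in macrophage and lymphocyte differentiation, did not follow it. It had 4.60 and 4.68 CPM in PARP1 WT libraries, 4.44 and 4.71 CPM in PARP1CKO libraries, 10.9 and 11.1 CPM in PARP2 WT libraries and 12.5 and 9.88 CPM in PARP2CKO libraries. The PARP2CKO difference was 0.03 on the log2 scale (95% interval -0.22 to 0.27, adjusted p = 0.993 in edgeR's quasi-likelihood test). Egr2 was the 1 gene of the 10 in which the 4 libraries of the PARP2 line did not overlap the 4 of the PARP1 line, against 10.5% of all genes that lay above and 9.93% that lay below. Egr2 averaged 2.41-fold higher in the PARP2 line, a log2 difference of 1.27 that lay between 1.18 and 1.35 with 1 library left out. Egr2 was singled out after the values were seen, so this is a description with no test. Markers of other cells also differed between the lines. The summed level of 7 B cell genes was 29.5 to 43.0 CPM in the PARP1 line and 8.15 to 11.4 CPM in the PARP2 line, that of 7 basophil and mast cell genes 23.4 to 32.05 CPM and 8.93 to 16.7 CPM, and that of 6 osteoclast genes 19.2 to 26.2 CPM and 31.5 to 53.4 CPM. The macrophage sum was 3971 to 4286 CPM in the PARP1 line and 4371 to 4735 CPM in the PARP2 line, that of 6 monocyte genes 213 to 289.6 CPM and 289.7 to 326 CPM, and that of 5 dendritic cell genes 16.8 to 24.1 CPM and 11.01 to 16.5 CPM. Their part in the Egr2 difference was not tested, and the floxed gene and any other difference between the lines cannot be told apart.

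Ier2 (chr8:84661331-84662852, minus strand, 1 exon) had 28.0 and 31.4 CPM in PARP1 WT libraries, 24.7 and 22.3 CPM in PARP1CKO libraries, 27.5 and 38.1 CPM in PARP2 WT libraries and 21.3 and 25.0 CPM in PARP2CKO libraries. Here too the WT and CKO libraries of each line did not overlap. Its PARP2CKO difference, -0.51 on the log2 scale (standard error 0.14, 95% interval -0.83 to -0.18), stood beside -0.34 in PARP1CKO. It had an unadjusted p of 0.00671 and an adjusted p of 0.840 in edgeR's quasi-likelihood test, and over the alternatives its adjusted p lay between 0.0660 and 1. It was -0.25 without PARP2 WT replicate 2 and -0.72 without PARP2 WT replicate 1.

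Zfp36 (chr7:28376784-28380253, minus strand) was the most abundant of the 10 in CPM. It had 211 and 204 CPM in PARP1 WT libraries, 174 and 148 CPM in PARP1CKO libraries, 205 and 232 CPM in PARP2 WT libraries and 200 and 201 CPM in PARP2CKO libraries. The WT and CKO libraries of each line did not overlap, narrowly so in the PARP2 line, with 205 CPM in the lower WT and 201 CPM in the higher CKO library. The PARP2CKO difference was -0.13 on the log2 scale (95% interval -0.31 to 0.05, adjusted p = 0.954 in edgeR's quasi-likelihood test). It was -0.03 without PARP2 WT replicate 2 and -0.21 without PARP2 WT replicate 1. An antisense gene, Gm44710, shares 125 bases of its exon in GENCODE M21, with the same limit as for Jund.

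In the PARP2CKO comparison as a whole, 5 of the 10 genes lay lower in both CKO libraries, 3 higher and 2 overlapped, beside 18.8% of all genes tested that lay lower and 18.4% that lay higher. None of the 10 passed an adjusted p of 0.05 in edgeR's quasi-likelihood test, which called 0.053% of the 13197 genes. At an unadjusted p under 0.05 there were 3, Egr1, Fosb and Ier2, all lower in PARP2CKO, where 4.83% of all genes passed and 2.46% passed and were lower. This count leans on PARP2 WT replicate 2. Without it the log2 fold change went from -1.58 to -1.03 for Egr1, from -1.42 to -0.54 for Fosb and from -0.51 to -0.25 for Ier2. DESeq2 called 1 of the 10, Fosb, beside 27 of the 13197 genes. The likelihood-ratio test of edgeR called 1, Egr1, beside 39 of the 13197 genes. The median log2 fold change of the 10 was -0.06, beside -0.0014 for all genes. The 5 genes lower in both PARP2CKO libraries were Fos, Fosb, Egr1, Ier2 and Zfp36.

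Markers of other cells also differed between PARP2CKO and PARP2 WT libraries. Summed levels were lower in both PARP2CKO libraries for 8 neutrophil genes (2660 to 3022 CPM against 3044 to 3272 CPM), 6 monocyte genes (290 to 299 CPM against 311 to 326 CPM) and 7 basophil and mast cell genes (8.93 to 11.3 CPM against 13.6 to 16.7 CPM). They were also lower for 7 T and NK cell genes (2.18 to 2.36 CPM against 2.49 to 3.31 CPM), of which 2 passed the low-count filter. Most of that sum was 1 gene, Nkg7, with 1.94 and 1.88 CPM against 2.25 and 2.69 CPM. Gene by gene, 5 neutrophil, 2 monocyte and 5 basophil and mast cell genes lay lower in both PARP2CKO libraries and 0 higher. Over all genes tested the shares were 18.8% and 18.4%. The hemoglobin gene Hba-a1, whose counts equal those of its copy Hba-a2 in every library, had 0.570 and 0.642 CPM in PARP2CKO libraries against 0.813 and 0.692 CPM in PARP2 WT libraries, and 3.11 and 3.83 CPM in PARP1CKO libraries against 1.99 and 1.77 CPM in PARP1 WT libraries. The part of these cells in the levels of the 10 genes was not tested.

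The group with the widest replicate spread differed between genes. In PARP2 WT 9 of the 10 genes were higher in replicate 2 than in replicate 1, beside 49.9% of all genes tested, with ratios of 2.71 for Fosb, 1.93 for Egr1, 1.39 for Ier2 and 1.38 for Fos, and 0.995 for Fosl2, the exception. In PARP1CKO the ratio was 0.496 for Egr1, 0.665 for Fosb, 0.676 for Fos and 0.850 for Zfp36, and in PARP1 WT it was 1.23 for Jun, 1.29 for Junb and 1.26 for Jund. Egr2 was furthest apart in PARP2CKO, with a ratio of 0.792. PARP2 WT replicate 2 was also the library with the low Parp1 level given above, and the relation of the pair was not tested. In PARP1 WT 6 of the 10 were higher in replicate 2, in PARP1CKO 2 and in PARP2CKO 5, beside 50.7%, 51.2% and 49% of all genes. Within groups Fosb lay on the same side as Fos between replicates in 4 of 4 groups, and Egr1, Zfp36 and Jund in 3 of 4. Jun, Junb, Egr2 and Ier2 did so in 2 of 4 and Fosl2 in 1 of 4. For Jund the match in PARP2CKO was nearly a tie, with a ratio of 0.9999.

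Dividing by exon length allowed levels to be compared between genes, in CPM per kilobase of exon (GENCODE M21). Averaged over the 8 libraries the order was Fos (60.1), Zfp36 (56.7), Jun (49.0), Junb (25.2), Ier2 (17.9), Jund (12.2), Egr1 (8.53), Fosl2 (4.87), Egr2 (2.46) and Fosb (0.779). The length used for Zfp36, 3470 bases, is 1 exon block over its whole GENCODE span, and its RefSeq start lies within that span. A shorter length would raise its level, so the order of Fos and Zfp36 depends on the annotation. The order changed by group: in PARP1CKO Fos (27.7) averaged below Zfp36 (46.4) and Jun (44.9), and in PARP1 WT Fosb (1.75) averaged above Egr2 (1.46). Egr1 averaged above Jund in PARP1 WT (13.8 against 10.7) and PARP2 WT (13.4 against 12.1). It averaged below Fosl2 in PARP1CKO (2.41 against 4.80) and PARP2CKO (4.47 against 5.06). The ranges over libraries overlapped among the first 3 (22.4 to 88.4, 42.6 to 66.9 and 42.3 to 53.7), and that of Fos also overlapped those of Junb (19.6 to 29.1) and Ier2 (13.98 to 25.1), which overlapped each other. Egr1, from 1.60 to 17.6, overlapped the ranges of Ier2, Jund, Fosl2, Egr2 and Fosb, and Egr2 (1.39 to 3.91) overlapped Fosb (0.164 to 1.80).

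The sum of Fos, Fosb and Fosl2 was 88.6 and 76.6 CPM per kilobase in PARP1 WT libraries and 38.0 and 27.4 in PARP1CKO, while the sum of Jun, Junb and Jund was 71.4 and 89.3 in PARP1 WT and 83.5 and 79.7 in PARP1CKO. The ratio of the FOS family sum to the JUN family sum was 1.24 and 0.858 in PARP1 WT libraries and 0.455 and 0.344 in PARP1CKO libraries. In PARP2 WT the ratio was 0.801 and 1.004, and in PARP2CKO 0.728 and 0.688. Fos made up 91.2% to 93.6% of the FOS family sum in the 4 WT libraries and 87.0% and 81.6% in PARP1CKO, where the steady Fosl2 took a larger share.

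**Figure D3:**
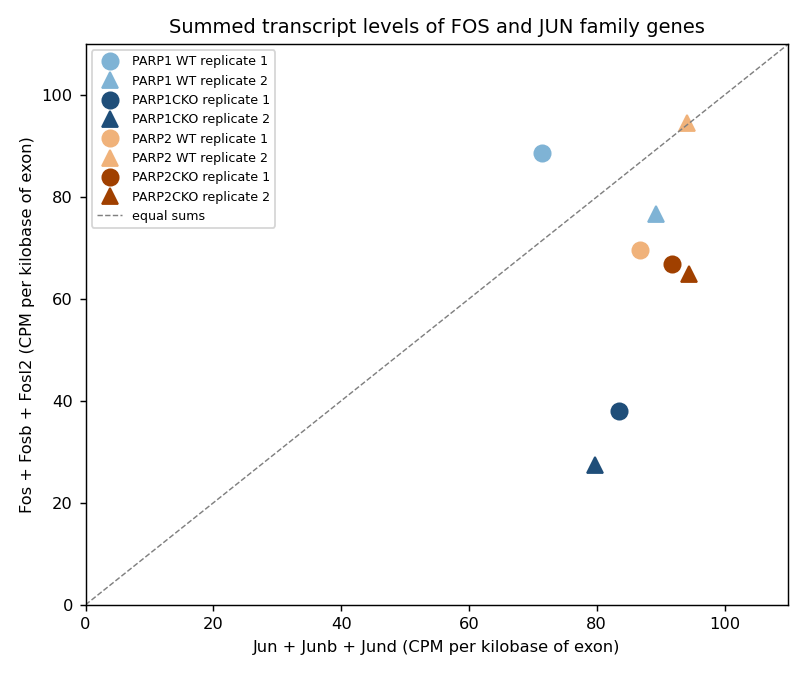
Sum of Fos, Fosb and Fosl2 (vertical axis) against the sum of Jun, Junb and Jund (horizontal axis), both in CPM per kilobase of exon, 1 point per library, with a dashed line where the sums are equal. The PARP1CKO libraries lie at 38.0 and 27.4 on the vertical axis, below the other 6 libraries, with JUN family sums of 83.5 and 79.7 inside the range of the others.

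The genes whose log2 CPM followed that of Fos most closely over the 8 libraries were Klf6 (Pearson r = 0.99), Dusp1 (0.99), Rgs1 (0.98), Mrpl18 (0.98) and Abcf2 (0.95). Klf6 encodes an immediate-early zinc finger factor, Dusp1 a phosphatase that switches off MAP kinases, and Rgs1 an inhibitor of G-protein signaling. For Jun they were Ppp5c, Rab32, Commd3, Manf and Rps6ka3, with r from 0.98 to 0.96. Among the 10 genes, Fos followed Zfp36 (0.98) and Egr1 (0.92), Fosb followed Egr1 (0.91), Jun followed Junb (0.90), and Jund ran against Fosb (-0.74). These correlations describe 8 libraries in which the difference between PARP1CKO and the rest takes part, and no p is given. Dusp1 had 61.0 and 54.2 CPM in PARP1 WT libraries, 28.1 and 21.8 CPM in PARP1CKO libraries, 45.9 and 57.9 CPM in PARP2 WT libraries and 44.1 and 40.1 CPM in PARP2CKO libraries, so as for Fos the PARP1CKO libraries were lowest and PARP2 WT replicate 2 lay above replicate 1.

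Related genes were read from lists of the pathway, and named by level. Of 39 other immediate-early genes tested, none passed edgeR's quasi-likelihood test in the PARP2CKO comparison, 2 were higher and 5 lower at an unadjusted p under 0.05 (2.46% of all genes were lower), and the median log2 fold change was -0.03. In PARP1CKO, as a description, 17 of the 39 lay lower in both libraries and 3 higher, beside 20.2% and 21% of all genes, with a median of -0.15. The 3 most abundant were Mcl1, a survival protein (479 CPM in the PARP1 WT, 446 CPM in the PARP1CKO group), Klf6 (393 and 337 CPM) and Plk2, a kinase (163 and 165 CPM). The lowest log2 fold change of the 39 in PARP1CKO was -1.20, that of Dusp1, beside -1.45 for Fos.

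The other AP-1 and partner genes gave 14 tested and none called by that test in the PARP2CKO comparison, with a median of -0.0050. At an unadjusted p under 0.05, 1 of the 14 was higher and 1 lower, where 4.83% of all genes passed and 2.46% passed and were lower. In PARP1CKO 2 lay lower and 2 higher in both libraries, beside 20.2% and 21% of all genes. Maf had 248 CPM in the PARP1 WT and 265 CPM in the PARP1CKO group, and Atf3 166 and 144 CPM. Of the EGR list, Nab1 and Nab2, which encode corepressors that bind EGR proteins, had PARP1CKO log2 fold changes of -0.03 and 0.12, and Egr3 had 3.12 and 2.42 CPM. None of the 3 passed in PARP2CKO, nor did either tested ZFP36 relative or any of the 4 IER relatives. Of these, 0 had an unadjusted p under 0.05, beside 4.83% of all genes. Zfp36l2, the most abundant relative, had 295 CPM in the PARP1 WT and 264 CPM in the PARP1CKO group, and Ier5 had 55.0 and 49.4 CPM.

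Upstream, transcripts of the receptor, RAS and MAP kinase cascade and of the SRF complex were close between groups. Of the 30 tested none passed in PARP2CKO, and none reached an unadjusted p of 0.05, beside 4.83% of all genes. The median was -0.0049 in PARP2CKO and 0.02 in PARP1CKO. Csf1r had 1193, 1196, 1200 and 1264 CPM on average in PARP1 WT, PARP1CKO, PARP2 WT and PARP2CKO, in this order, Grb2, an adaptor, 285, 285, 295 and 306 CPM, and Rps6ka3, a kinase downstream of ERK, 198, 195, 204 and 202 CPM. Srf itself, the factor that binds CArG boxes, had 55.2, 58.5, 59.0 and 58.1 CPM. The activity of these proteins was not measured.

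Downstream, 10 AP-1 target genes gave none called in PARP2CKO, with a median of 0.08. At an unadjusted p under 0.05 in the same test, 2 of the 10 were lower, beside 2.46% of all genes. Spp1, or osteopontin, had 2987 CPM in the PARP1 WT and 2561 CPM in the PARP1CKO group, Hmox1, a heme-degrading enzyme, 1356 and 1296 CPM, and Plau, a secreted protease, 693 and 796 CPM. Of 9 transcripts known as ZFP36 targets, 1 passed in PARP2CKO, beside 0.053% of all genes. This was the chemokine gene Ccl3, which fell from 125 to 63.3 CPM (log2 fold change -0.99, standard error 0.12, adjusted p = 0.0465 in edgeR's quasi-likelihood test). Over the alternatives its adjusted p lay between 2.48e-11 and 0.293, and the call was lost in a fit of the 4 PARP2 libraries (0.214), with a filter of 1 CPM in 2 libraries (0.0581), and without PARP1 WT replicate 1 (0.152) or 2 (0.150) or PARP2CKO replicate 1 (0.293) or 2 (0.240). Ccl2 had 459 and 504 CPM and Tnf 68.4 and 63.5 CPM on average in PARP2 WT and PARP2CKO, respectively, and the median log2 fold change of the 9 was -0.15. Heat shock genes, measured as signs of stress, gave none of 9 called in PARP2CKO, with a median of 0.0092. At an unadjusted p under 0.05 in the same test, 1 of the 9 was lower, beside 2.46% of all genes. In PARP1CKO their median was -0.06, with 5 of the 9 lower and 2 higher in both libraries, beside 20.2% and 21% of all genes. Hspa8 had 3169, 3030, 3257 and 3350 CPM over the 4 groups in the order above, Hsp90aa1 841, 759, 776 and 760 CPM and Hspd1 437, 390, 431 and 426 CPM.

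**Figure D4:**
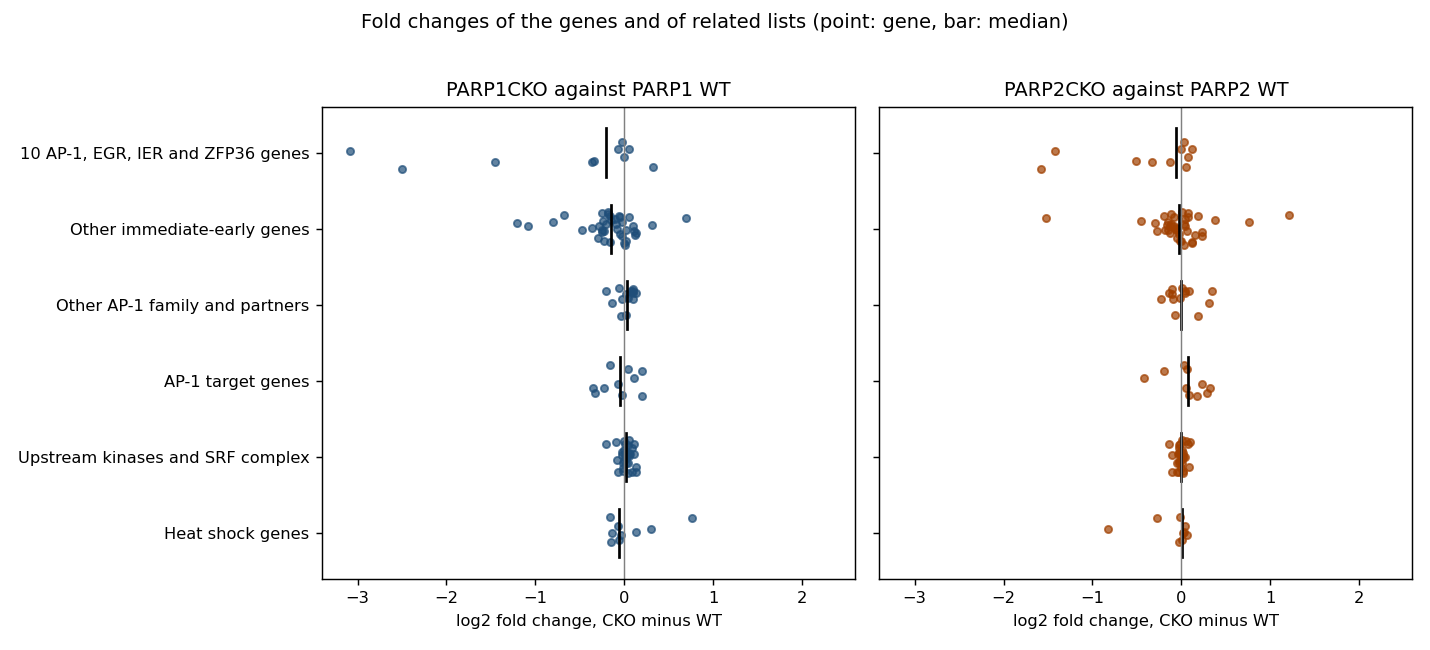
Log2 fold changes (horizontal axis, CKO minus WT) in PARP1CKO (left) and PARP2CKO (right) for the 10 genes and 5 related lists, 1 point per gene with a bar at the median of the list. The points of Fosb, Egr1 and Fos lie far to the left of the median of -0.21 in PARP1CKO, while upstream kinases and the SRF complex stay near 0.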

How the data were processed

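Per the labels and methods of the study, single-end reads went through adapter trimming (fastq-mcf) and mapping to mm10 (TopHat2 2.0.12), were marked for duplicates with Picard 1.127 and counted with featureCounts, and the authors deposited raw counts per gene. The annotation, the strand setting and the handling of duplicates in counting are not given in the sources used here. Counts were analysed in R 4.3.3 with edgeR 4.0.16: filterByExpr, TMM scaling, 1 mean for each of 4 groups over 8 libraries, the quasi-likelihood test and Benjamini-Hochberg adjustment over all genes tested, at 0.05. Intervals are 95% intervals from that fit. An exact permutation test of a single gene, 2 libraries against 2, cannot go below a two-sided p of 0.333, so p-values come from the fit across genes. Log2 CPM used a prior count of 2. Replicates differed by more than sampling noise (chi-square per gene 8.56 to 12.9).

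The members and lists were chosen with earlier results of these data known. Named are the 10 genes, in each list the 3 genes with the highest mean CPM and any called in PARP2CKO, and the 5 genes nearest to Fos and to Jun by correlation. A gene that this rule names is not reported here. Srf and Dusp1 with its values per library were named after their values were seen, and Parp1 and Parp2 check the labels. Exon lengths and positions are from GENCODE M21 and promoter windows from RefSeq. DESeq2 1.42.0 served as an alternative, beside other scalings, filters and tests, a replicate block and leaving out each library. The fit was tested on simulated data, in which the share of false calls was above the adjusted p threshold, so single calls near 0.05 are less firm than their adjusted p. Plots were made in matplotlib 3.10.9. The marker genes Ly6g, Adgre1 and Trac were not analysed here.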

Additional observations from a re-analysis of the deposited data

How the results depend on the processing

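The number of genes called in PARP2CKO depended on the test: 7 with the quasi-likelihood test, 27 with DESeq2, 39 with the likelihood-ratio test and 26 when no low-count filter was used. With 1 library left out it was 4 without either PARP1 WT library, 19 and 14 without PARP2 WT replicates 1 and 2, 11 without PARP2CKO replicate 2 and between 6 and 9 without the others. Of the 10 genes 0 were called, but 1 with DESeq2, 1 with the likelihood-ratio test and 1 without a filter, and between 0 and 1 with 1 library left out, the 1 being Fosb without PARP2 WT replicate 1. With the replicate number as a block, 11 genes and 1 of the 10 were called. Deviations of same-numbered libraries correlated at -0.13 in the PARP1 line and 0.15 in the PARP2 line, so the numbers were not taken to pair the libraries; with the PARP1 line crossed, an alternative added after seeing the data, 15 genes and 0 of the 10 were called.

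The sign of 2 PARP2CKO log2 fold changes near 0 reversed. That of Jun was 1.71e-05 with DESeq2's size factors and 2.36e-05 with DESeq2, and lay between -0.050 and 0.048 with 1 library left out. That of Egr2 was -0.0024 with library size alone, and lay between -0.16 and 0.18 with 1 library left out. In PARP1CKO, with 1 library left out, the log2 fold change lay between -0.22 and 0.08 for Jun, -0.12 and 0.25 for Junb, -0.07 and 0.06 for Fosl2 and -0.06 and 0.02 for Egr2. The median of the 10 lay between -0.28 and -0.13 in PARP1CKO and between -0.14 and 0.0049 in PARP2CKO with 1 library left out, and the last value, without PARP2 WT replicate 2, was the only one above 0. Leaving out 1 library leaves a lone sample in its group, which is assumed to vary like the others. The PARP1CKO log2 fold changes of Fos, Fosb and Egr1 stayed below 0 under every alternative run. Their values nearest to 0 were -1.20, -2.83 and -2.10, each without PARP1CKO replicate 2. Those of Zfp36 and Ier2 also stayed below 0, and that of Jund stayed above 0. The genes were chosen on this contrast, so nothing is read from these steady signs. The cause of the shifts between alternatives was not tested.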
